A study of Mus musculus with 12 samples.

Results

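The transcripts of 8 chemokine receptors, Cxcr4, Cxcr2, Cxcr3, Ccr1, Ccr2, Ccr3, Ccr7 and Cx3cr1, were examined in immature and mature basophils grown from mouse bone marrow. They were taken by symbol from a table of 31301 genes, and were chosen with earlier results of these data known. Of the 8 receptors, all had at least 1 count, and 6 held enough counts to be among the 10861 genes tested. Cxcr3 and Ccr7 did not, and Cx3cr1 passed that filter through its level in IL-3 mature cells, so its higher level there is in part a condition of its being tested.

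Chemokine receptors are G protein-coupled receptors that steer leukocytes along gradients of chemokines. CXCR4 binds CXCL12, which stromal cells of the bone marrow produce, and this interaction keeps haematopoietic cells in the marrow. CXCR2, the receptor of CXCL1 and CXCL2, has the opposing role in neutrophils and directs their release into blood, whereas CCR1, CCR2 and CCR3 direct leukocytes into inflamed tissue, CCR3 being best known from eosinophils and basophils.

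Bone marrow cells of wild-type C57BL/6J mice were cultured for 7 days to give bone marrow-derived basophils (BMBAs). The cultures held interleukin-3 (IL-3) at 0.3 ng/mL, or thymic stromal lymphopoietin (TSLP) at 1 µg/mL in the treatment protocol, whereas another label writes the TSLP dose in mg/mL. Sorting gave immature basophils (FcεRIαhi CD49blo, the pre-basophils of the study) and mature basophils (FcεRIαlo CD49bhi). Polyadenylated RNA of the 4 groups was sequenced, with 3 libraries in each. The cells were generated in vitro, the age and sex of the mice and how many animals fed a culture were not stated in the sources used here, and in such bulk libraries fewer cells of a type and less RNA per cell cannot be told apart.

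Levels are given as CPM, that is, counts scaled to a common total of 1e+06 after adjustment of the library size with TMM (trimmed mean of M values), as mean ± SD of 3 libraries. Differences are log2 fold changes ± standard error from edgeR's quasi-likelihood test over 10861 genes, and a gene was called where the Benjamini-Hochberg adjusted p was under 0.05. Library totals ranged from 1720065 to 3685285 counts, and 3 counts over a group, the limit that a count of 0 allows, corresponded to 0.286 to 0.386 CPM. All 8 basophil markers listed, among them Mcpt8 with at least 2166 CPM in every library, were detected. The 6 mast cell markers summed to 656 to 3232 CPM over the 12 libraries, almost all of it from Cpa3, a protease gene that basophils share. Kit, whose product the study's basophil gate for IL-3 cultures leaves out, stayed at or below 1.46 CPM, and the tryptase gene Tpsb2 reached at most 5.34 CPM in IL-3 cultures and was at 0 with TSLP. The library TSLP mature 1 stood apart from the other TSLP mature libraries. Its counts differed from theirs with a chi-square of 44.1 and 55.4 per degree of freedom, against 2.12 to 13.6 in the other pairs of replicates, and it held more counts of neutrophil and B lineage genes. Values without it are given beside the receptor, marker and pathway calls named below that it changed.

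The receptor genes are spread over 4 chromosomes (GRCm38, the assembly named in the methods of the study; GENCODE annotation). Cxcr4 (chromosome 1, 128588199 to 128592293, minus strand) and Cxcr2 (chromosome 1, 74153989 to 74161246, plus strand) are far apart on the same chromosome. Ccr1 (chromosome 9, 123962124 to 123968692, minus strand), Ccr3 (chromosome 9, 124021972 to 124031689, plus strand) and Ccr2 (chromosome 9, 124101950 to 124113557, plus strand) form a cluster with Ccr1l1 between Ccr1 and Ccr3. Cx3cr1 (chromosome 9, 119901616 to 120069879, minus strand) is outside that cluster, and Cxcr3 (chromosome X, 101731535 to 101734269, minus strand) and Ccr7 (chromosome 11, 99144196 to 99155077, minus strand) are alone among the 8 on theirs. Reads could be shared with other genes in 3 cases. Of all 50-base stretches of the transcripts, 6.68% in Cxcr2, 1.91% in Ccr2 and 1.06% in Cx3cr1 also occurred in transcripts of other genes, against 0 in the other 5 receptors. An exon of Cx3cr1 overlaps 78 bases of Gm33858 on the opposite strand, and whether strand was used in counting was not stated.

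The start regions of Cxcr4 and of the 3 receptors that differed most from it in the IL-3 cultures are shown, since Cxcr4 fell where the others rose. Each is 300 bases, from 250 bases before to 50 after the transcription start, read 5′ to 3′ on the strand of the gene. The sequences are from RefSeq (GRCm38.p6), in which 7 of the 8 receptors matched and Ccr7 did not. Capitals mark AGATAA, the motif of GATA factors, on either strand (TTATCT where it lies on the opposite strand). Such factors, GATA2 above all, are required for the basophil lineage.
Cxcr4, chr1:128592250-128592549, minus strand: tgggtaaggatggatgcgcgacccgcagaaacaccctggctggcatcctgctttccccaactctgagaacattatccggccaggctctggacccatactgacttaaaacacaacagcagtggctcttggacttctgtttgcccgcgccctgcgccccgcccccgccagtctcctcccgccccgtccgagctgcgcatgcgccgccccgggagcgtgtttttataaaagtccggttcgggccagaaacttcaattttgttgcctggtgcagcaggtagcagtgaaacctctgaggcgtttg
Cxcr2, chr1:74153744-74154043, plus strand: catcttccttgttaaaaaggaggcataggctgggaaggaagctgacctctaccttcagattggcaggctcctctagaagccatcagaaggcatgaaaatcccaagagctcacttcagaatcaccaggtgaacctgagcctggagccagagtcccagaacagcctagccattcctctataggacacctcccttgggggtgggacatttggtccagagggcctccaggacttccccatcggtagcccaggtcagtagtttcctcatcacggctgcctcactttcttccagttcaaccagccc
Ccr3, chr9:124021721-124022020, plus strand: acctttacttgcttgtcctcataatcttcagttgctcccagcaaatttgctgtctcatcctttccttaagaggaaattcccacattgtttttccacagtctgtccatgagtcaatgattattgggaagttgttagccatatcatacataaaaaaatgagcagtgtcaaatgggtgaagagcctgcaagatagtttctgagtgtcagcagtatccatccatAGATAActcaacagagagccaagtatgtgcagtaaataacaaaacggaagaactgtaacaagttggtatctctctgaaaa
Ccr2, chr9:124101933-124102232, plus strand: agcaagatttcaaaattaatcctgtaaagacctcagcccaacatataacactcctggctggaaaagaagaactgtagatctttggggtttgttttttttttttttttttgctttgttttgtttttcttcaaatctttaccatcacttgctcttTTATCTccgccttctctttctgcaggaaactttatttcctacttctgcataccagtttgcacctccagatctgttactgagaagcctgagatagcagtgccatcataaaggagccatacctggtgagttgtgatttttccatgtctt
The Cxcr4 start region held 20 CG dinucleotides and was 59.3% G or C, whereas those of Cxcr2, Ccr3 and Ccr2 held 2, 1 and 1. AGATAA began at position -30 from the RefSeq start of Ccr3 and, on the opposite strand, at position -97 from that of Ccr2. It thus occurred in 2 of 7 receptor promoters, against 11.2% of 32851 promoters of the same length. The 2 annotations place the start of Ccr2 differently. The GENCODE gene begins at 124101950, near the 5′ end of the stretch shown, so the marked site lies inside that gene. TGTGGT, the core of the RUNX motif, was found on either strand in 3 of 7 (Ccr1, Cxcr3 and Cx3cr1; 16.8% of all promoters), and TTCNNNGAA, the STAT motif, in 0 of 7 (8.3% of all promoters). No matches of the 3 motifs overlapped each other. A match describes the letters and is no evidence of binding.

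The question of which receptors differ between immature and mature cells was examined in each cytokine. In IL-3 cultures, 6 of 6 tested receptors were called, Cxcr4 lower and Cxcr2, Ccr1, Ccr2, Ccr3 and Cx3cr1 higher in mature cells. This stood against 46.2% of all tested genes, 24.1% being higher and 22.1% lower. The median log2 fold change of the 6 receptors was 1.94, against 0.06 over all tested genes. Cx3cr1 is among the 6 although it passed the filter on low counts through IL-3 mature libraries only. Its call here was thus in part a condition of its being tested. In TSLP cultures, 4 of 6 were called, Cxcr4 lower and Cxcr2, Ccr1 and Ccr3 higher, against 25.1% of tested genes (12.9% higher, 12.2% lower). The median here was 0.47, against 0.03 over all genes.

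**Figure D1:**
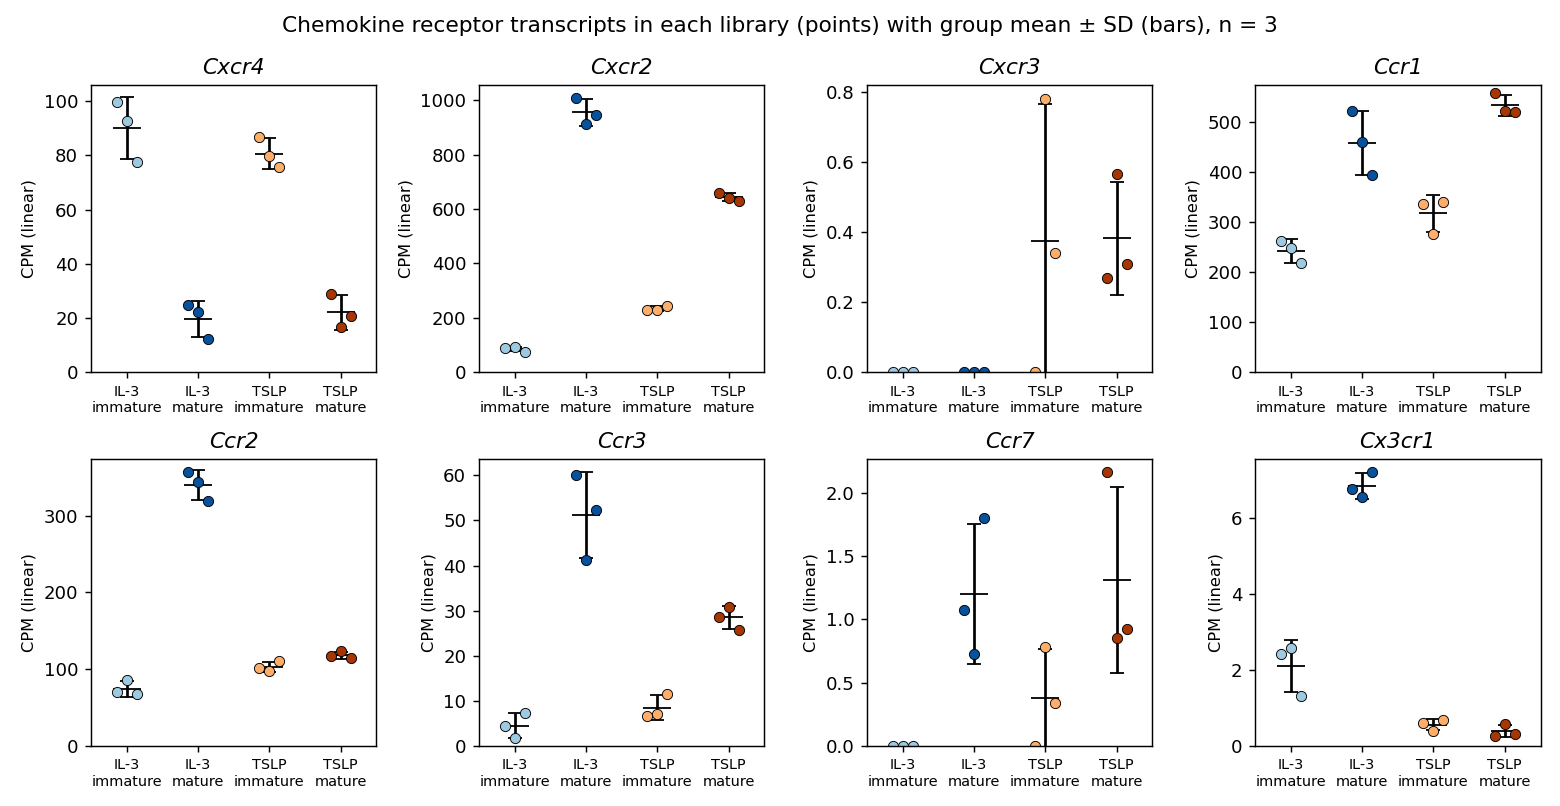
CPM (linear vertical axis, a scale for each receptor) of the 8 chemokine receptors in each of the 12 libraries; points are libraries and bars are the mean ± SD of the 3 libraries of a group. Cxcr4 was lower in all mature than in all immature libraries, Cxcr2 was highest in IL-3 mature cells, Ccr2 was high in IL-3 mature cells and Cxcr3 was at or near 0 throughout.

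Cxcr4, the receptor of marrow retention, was high in immature cells of both cultures. It was at 99.9, 92.8 and 77.5 CPM in the 3 IL-3 immature libraries and at 24.6, 22.2 and 12.2 CPM in the IL-3 mature libraries. In TSLP cultures it was at 86.9, 79.7 and 75.6 CPM in immature and at 28.9, 16.5 and 20.6 CPM in mature libraries. No mature library reached the level of any immature library, whichever the cytokine. Group means were 90.1 ± 11.5 and 19.7 ± 6.59 CPM with IL-3, a 4.52-fold lower level in mature cells (log2 fold change -2.18 ± 0.248, adjusted p = 2.72e-06). With TSLP they were 80.7 ± 5.73 and 22 ± 6.32 CPM, a 3.66-fold lower level (-1.87 ± 0.24, adjusted p = 2.91e-05). No difference between the cytokines was called. TSLP minus IL-3 was -0.16 ± 0.224 in immature cells (adjusted p = 0.696) and 0.15 ± 0.255 in mature cells (adjusted p = 0.707), and the sign of the latter turned without TSLP mature 1 (-0.19). The maturation effect differed between the cytokines by 0.30 ± 0.34 (interaction, adjusted p = 0.7), or by -0.00 without TSLP mature 1. In that library, which had the highest Cxcr4 level of its group, the 6 B lineage genes listed summed to 160.0 CPM, but in TSLP mature 2 and 3 to 16.7 and 16.9 CPM. Without it the maturation difference in TSLP cultures was -2.22.

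Cxcr2 was the receptor with the largest gain in reads. It was at 89.3, 90.6 and 75.5 CPM in the immature and at 1010.5, 913 and 948 CPM in the mature libraries of IL-3 cultures, an 11.2-fold difference (3.49 ± 0.173, adjusted p = 6.62e-10). In TSLP cultures it rose from 227, 229 and 243 CPM to 659.9, 642 and 631 CPM, a 2.76-fold difference (1.47 ± 0.159, adjusted p = 5.28e-06). The 4 groups did not overlap in any library, and the TSLP groups lay between the IL-3 groups. TSLP immature cells had 2.74-fold more Cxcr2 than IL-3 immature cells (1.45 ± 0.162, adjusted p = 3.3e-05), whereas TSLP mature cells had 1.49-fold less than IL-3 mature cells (-0.57 ± 0.156, adjusted p = 0.0154). The latter call was lost without IL-3 mature 1 (adjusted p = 0.0538) and without the filter on low counts (adjusted p = 0.0866). The smaller maturation effect in TSLP cultures was a significant interaction (-2.03 ± 0.224, adjusted p = 0.00013), one of 4.19% of tested genes with such a call.

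Because neutrophils express Cxcr2, neutrophil markers were read in the same libraries. All 8 listed were detected, and 3 were called higher in mature cells with IL-3 and 7 with TSLP, against 24.1% and 12.9% of all tested genes. Without TSLP mature 1 these counts were 8 with IL-3 and 1 with TSLP, against 25.6% and 12.4%. Ltf, Camp and Ly6g passed the filter on low counts through mature libraries only. With IL-3 the sum of all 8 markers ranged from 45.4 to 85.7 CPM over immature and from 284 to 409 CPM over mature libraries, and with TSLP from 10.9 to 47.3 and from 38.8 to 742 CPM. The neutrophil surface marker Ly6g reached at most 8.19 CPM, in IL-3 mature libraries, and was at 0 in at least 1 library of each immature group. Within TSLP mature libraries, the sum was 742, 49.9 and 38.8 CPM and Cxcr2 was at 659.9, 642 and 631 CPM. The maturation difference of Cxcr2 in TSLP cultures was 1.35 without TSLP mature 1 (adjusted p = 3.99e-06). The part of neutrophil transcripts in the Cxcr2 differences was not tested in either culture.

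Ccr1, a receptor of CCL3, CCL5, CCL6 and CCL9, was abundant in all 4 groups and changed least among the called receptors. It was at 262, 248 and 217 CPM in IL-3 immature and at 521, 460.4 and 393 CPM in IL-3 mature libraries (1.89-fold, 0.92 ± 0.173, adjusted p = 0.000407). TSLP immature libraries held 336, 275 and 339 CPM and TSLP mature libraries 557, 522 and 519 CPM (1.68-fold, 0.75 ± 0.172, adjusted p = 0.00454). Mature libraries lay above the immature libraries of both cytokines without overlap. The call in TSLP cultures was lost without TSLP immature 2 (0.59, adjusted p = 0.0546). TSLP minus IL-3 was 0.39 ± 0.172 in immature cells (adjusted p = 0.148) and 0.22 ± 0.171 in mature cells (adjusted p = 0.383). The interaction was -0.17 ± 0.242 (adjusted p = 0.771).

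Ccr2, the receptor of CCL2 that directs inflammatory monocytes out of the marrow, showed a maturation difference in IL-3 cultures that was not detected in TSLP cultures. With IL-3 it was at 69.9, 85.4 and 66.9 CPM in immature and at 357, 344 and 319 CPM in mature libraries (4.59-fold, 2.20 ± 0.163, adjusted p = 2.58e-08). With TSLP it was at 101, 98.1 and 110.0 CPM in immature and at 117, 124 and 114 CPM in mature libraries (1.15-fold, 0.20 ± 0.157, adjusted p = 0.389; 0.11 without TSLP mature 1, adjusted p = 0.627). The TSLP mature libraries lay just above the TSLP immature ones and far below the IL-3 mature ones. The difference between the maturation effects was itself significant (-2.00 ± 0.225, adjusted p = 0.000142). Mature TSLP cells accordingly had 2.87-fold less Ccr2 than mature IL-3 cells (-1.52 ± 0.159, adjusted p = 2.62e-05). In immature cells TSLP minus IL-3 was 0.48 ± 0.16 (adjusted p = 0.0599), which passed the threshold without TSLP mature 1 (adjusted p = 0.0404).

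Since monocytes express Ccr2, monocyte and macrophage markers were read too. All 8 listed were detected, and with IL-3 the sum ranged from 19.5 to 43.7 CPM over immature and from 230.0 to 327 CPM over mature libraries, and with TSLP from 96.2 to 124 and from 366 to 634 CPM. Within the IL-3 cultures both the sum and Ccr2 were higher in every mature than in every immature library. Between mature libraries the sum was higher with TSLP, whereas Ccr2 was higher with IL-3 (319 to 357 against 114 to 124 CPM). Adgre1 (93.8 ± 17.4 CPM in IL-3 mature cells) and Ly6c2 led the list, and Cd14 stayed at or below 5.67 CPM. The part of such cells in the Ccr2 differences was not tested.

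Ccr3, the receptor of the eotaxins, was low in immature cells. It was at 4.37, 1.71 and 7.28 CPM in IL-3 immature libraries, from 9, 6 and 22 counts, and at 60.2, 41.2 and 52.3 CPM in IL-3 mature libraries (11.6-fold, 3.54 ± 0.344, adjusted p = 4.91e-07). TSLP immature libraries held 6.61, 7.03 and 11.6 CPM and TSLP mature libraries 28.6, 30.9 and 25.8 CPM (3.38-fold, 1.76 ± 0.314, adjusted p = 0.00066). The immature libraries of both cytokines overlapped, with TSLP minus IL-3 at 0.94 ± 0.394 (adjusted p = 0.128), which passed the threshold without IL-3 immature 3 (1.55, adjusted p = 0.0308). In mature cells the 2 cytokine groups did not overlap and Ccr3 was 1.8-fold lower with TSLP (-0.85 ± 0.272, adjusted p = 0.0338). This call was lost without IL-3 mature 1 (-0.71, adjusted p = 0.123), without IL-3 mature 3 (adjusted p = 0.0668) and without TSLP mature 3 (adjusted p = 0.0664). The interaction of Ccr3 (-1.78 ± 0.478) lay near the threshold, with an adjusted p of 0.0463. DESeq2 gave an adjusted p of 0.0128, whereas the call was lost with the size factors of DESeq2 in edgeR (adjusted p = 0.0501) and after thinning all libraries to the smallest (-1.36, adjusted p = 0.117). It was also lost when any single library other than IL-3 immature 3 or TSLP mature 1 was left out, with an adjusted p of up to 0.117. All 6 eosinophil markers were detected, and they did not move together. Siglecf rose with Ccr3, from 4.7 ± 1.36 to 20.4 ± 2.44 CPM with IL-3 (adjusted p = 7.03e-06) and from 6.14 ± 0.902 to 32.9 ± 5.25 CPM with TSLP (adjusted p = 2.34e-06). Prg2 fell from 23.6 ± 2.65 to 3.24 ± 0.598 CPM with IL-3 (adjusted p = 0.00702). The eosinophil peroxidase gene Epx had at most 0.571 CPM in any library and was at 0 in the IL-3 mature ones. With IL-3 the sum of the list ranged from 27.1 to 32 CPM over immature and from 22.9 to 28.5 CPM over mature libraries, and with TSLP from 9.38 to 22.5 and from 30.1 to 76.6 CPM. The part of such transcripts in the rise of Ccr3 was not tested.

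Cx3cr1, the receptor of fractalkine, was near the limit of detection. It was at 2.43, 2.57 and 1.32 CPM in IL-3 immature and at 6.77, 6.56 and 7.22 CPM in IL-3 mature libraries (1.68 ± 0.386, adjusted p = 0.00202). In TSLP cultures it had 1 or 2 counts in each library, 0.391 to 0.681 CPM in immature and 0.27 to 0.567 CPM in mature cells, and no maturation difference was detectable at this depth (-0.52 ± 0.722, adjusted p = 0.705). It was lower with TSLP in mature cells (-4.02 ± 0.489, adjusted p = 9.66e-05). The same comparison in immature cells (-1.82 ± 0.557, adjusted p = 0.0414) rested on few counts and lost its call in 11 of 20 alternatives, among them the omission of any IL-3 mature or TSLP immature library and of IL-3 immature 1 or 2 (adjusted p of up to 0.173). The interaction was -2.21 ± 0.862 (adjusted p = 0.213). Only IL-3 mature libraries brought Cx3cr1 past the filter, so its calls that involve them were in part a condition of its being tested.

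Ccr7, which guides cells to lymph nodes, and Cxcr3, a receptor of interferon-induced chemokines, were too rare to test. Ccr7 had 0 counts in all IL-3 immature libraries and 3, 2 and 4 counts in the IL-3 mature libraries. When 3 counts over the group stand for the count of 0, it was 3.31-fold higher in IL-3 mature cells. That ratio takes the counts of the mature libraries as exact, so it is not a lower limit. Ccr7 had 0, 2 and 1 counts in TSLP immature and 8, 3 and 3 counts in TSLP mature libraries. Every mature library thus held at least 2 counts of Ccr7. In a fit without the filter on low counts, over 22634 genes, the Ccr7 difference in IL-3 cultures had an adjusted p of 0.0183 and that in TSLP cultures one of 0.346. Dendritic cell markers, also at low levels, summed with IL-3 to between 1.66 and 11.2 CPM over immature and between 4.96 and 9.97 CPM over mature libraries, and with TSLP to between 3.61 and 5.11 and between 11.1 and 23.5 CPM. The part of such cells in the Ccr7 counts was not tested. Cxcr3 had 0 counts in all 6 IL-3 libraries, and 0, 2 and 1 counts in TSLP immature and 1, 2 and 1 counts in TSLP mature libraries. The T and NK cell markers summed to 45.4 to 50.6 CPM in IL-3 immature libraries and to at most 12.5 CPM elsewhere, and in IL-3 immature cells nearly all of the sum was Nkg7 (47 ± 2.17 CPM). The CD3 genes of T cells differed in where they were found. Cd3e had 0 counts in all 6 IL-3 libraries, 1 count over the TSLP immature and 6 over the TSLP mature libraries. Cd3d had 4 and 9 counts over the IL-3 immature and mature libraries, and 5 and 16 over those with TSLP. Cd3g had 1 and 1 with IL-3, and 0 and 7 with TSLP. The part of such cells in the Cxcr3 counts was not tested.

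**Figure D2:**
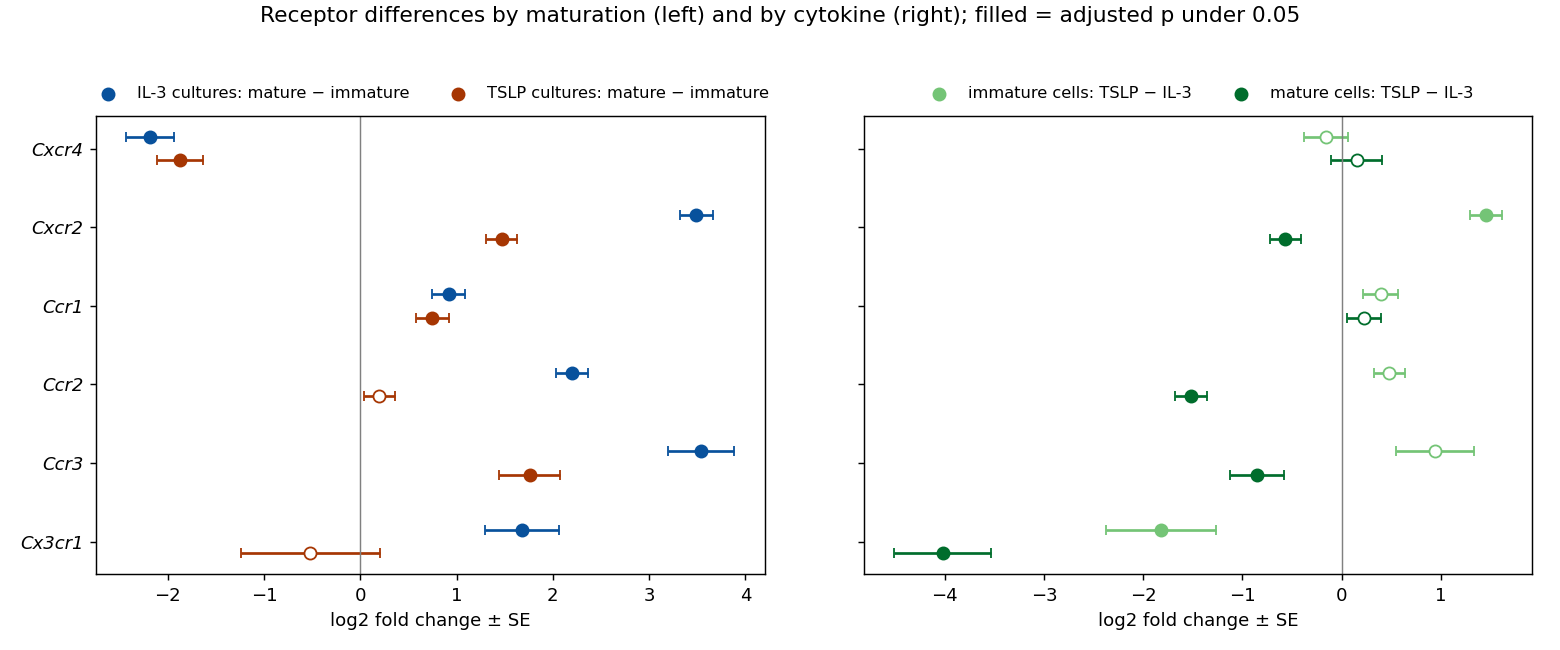
Log2 fold change ± SE (horizontal axis) of the 6 tested receptors, by maturation within each cytokine (left) and by cytokine within each stage (right). Filled points have an adjusted p under 0.05 and open points do not; Cxcr4 lay below 0 in both maturation comparisons (-2.18 and -1.87), and Ccr2 was at 2.20 with IL-3 and 0.20 with TSLP.

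The cytokine comparison divided the receptors. Between mature cells, 4 of 6 tested receptors were lower with TSLP (Cxcr2, Ccr2, Ccr3 and Cx3cr1) and 0 higher, against 24.3% of all tested genes called (12.4% higher, 11.9% lower with TSLP). Cx3cr1 passed the filter through IL-3 mature libraries only, so its call here was in part a condition of its being tested. Between immature cells, Cxcr2 was higher and Cx3cr1 lower with TSLP, 2 of 6 against 13.3% of tested genes (7.38% higher, 5.90% lower). The interaction was called for Cxcr2, Ccr2 and Ccr3, 3 of 6 against 4.19%. The mature and immature comparisons share their libraries with the maturation comparisons, so these counts are not separate evidence.

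The order of the groups differed between receptors. For Cxcr4 it was IL-3 immature, TSLP immature, TSLP mature, then IL-3 mature, where the difference lay between the second and the third and neighbours of the same stage did not differ beyond their spread. For Cxcr2 it was IL-3 mature, TSLP mature, TSLP immature and IL-3 immature, and each step was called. Ccr2 and Ccr3 had that same order of means, with the step between IL-3 mature and TSLP mature cells called in both and the step from TSLP mature to TSLP immature called for Ccr3. For Ccr1, TSLP mature cells ranked first, and TSLP immature cells were below IL-3 mature cells (-0.53 ± 0.172, adjusted p = 0.0209), and the omission of IL-3 mature 1 or 2 or of TSLP immature 2 ended this call. That comparison across both stage and cytokine called 40.2% of all tested genes. In the comparison of TSLP mature with IL-3 immature cells, Cxcr4 was lower (-2.03 ± 0.24) and Ccr2 higher (0.67 ± 0.159), among 50.6% of genes called.

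To compare receptors with each other, CPM was divided by the summed length of annotated exons, which is 1805 bases for Cxcr4, 2833 for Ccr1, 3048 for Cxcr2, 3272 for Ccr3 and 6760 for Ccr2. The library method amplifies cDNA primed from the poly(A) tail, so such levels per length are approximate. In IL-3 immature cells Ccr1 took 48.6% ± 0.501 of the summed level of the 8 receptors per length, Cxcr4 28.3% ± 0.92 and Cxcr2 15.9% ± 0.414. In IL-3 mature cells Cxcr2 took 56.7% ± 2.49, Ccr1 29.1% ± 2.18 and Cxcr4 1.95% ± 0.564. Receptor composition was thus led by Ccr1 before and by Cxcr2 after maturation. TSLP immature cells stood between these, with 44.4% ± 2.5 Ccr1, 30.5% ± 1.64 Cxcr2 and 17.8% ± 1.59 Cxcr4. In TSLP mature cells Cxcr2 took 48.2% ± 0.67, Ccr1 42.8% ± 0.247 and Cxcr4 2.76% ± 0.702. The share of Ccr2 was 9.08% ± 0.333 in IL-3 mature and 3.99% ± 0.227 in TSLP mature cells.

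Cxcr4 and Cxcr2 were also set against each other within a library, which needs no scaling between libraries. With IL-3, Cxcr4 had 106 ± 5.42 counts per 100 counts of Cxcr2 in immature and 2.05 ± 0.663 in mature cells. With TSLP it had 34.7 ± 3.61 and 3.4 ± 0.913. The lowest TSLP immature library, at 31, was far above the highest mature library, at 4.37, and below the lowest IL-3 immature library, at 103. Against Ccr1, Cxcr4 had 37.1 ± 1.22 and 4.21 ± 0.968 counts per 100 in IL-3 immature and mature cells and 25.7 ± 3.36 and 4.1 ± 1.02 in the TSLP groups.

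**Figure D3:**
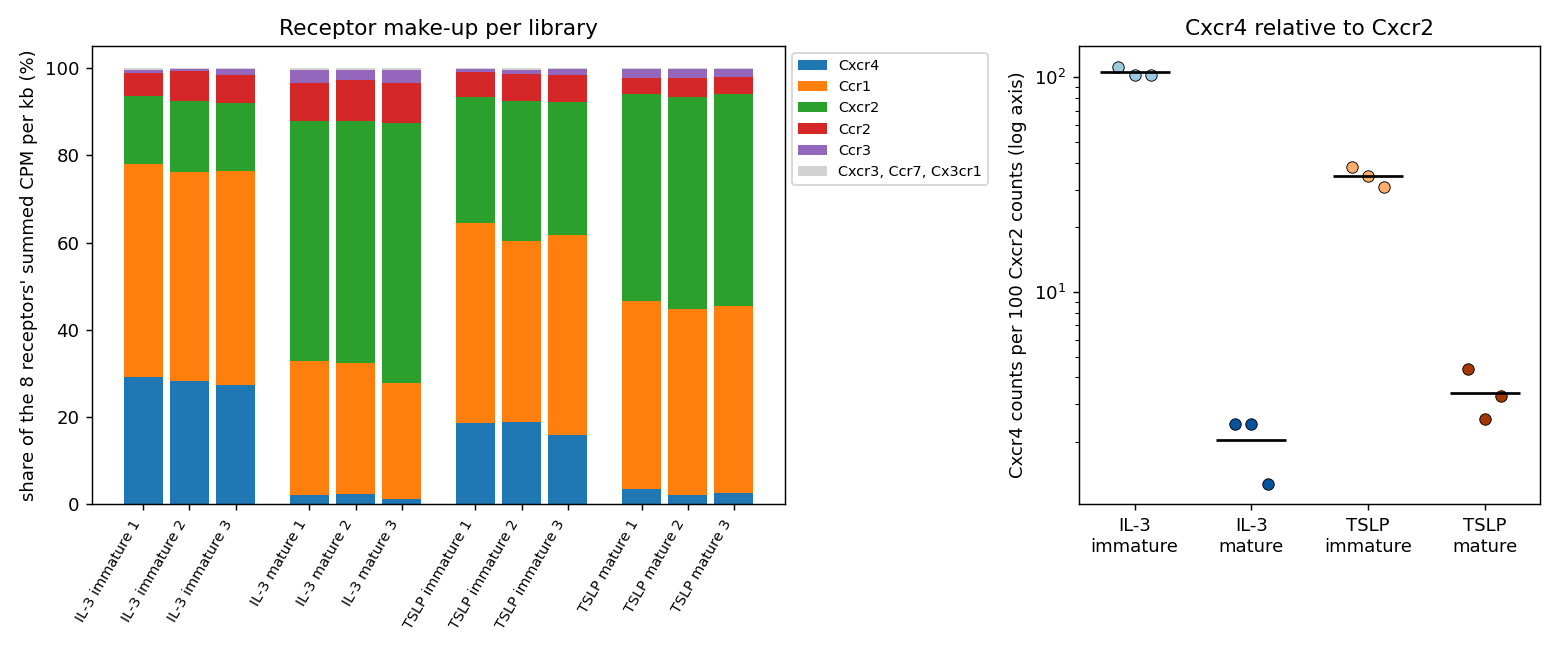
Left, share (%) of each receptor in the summed CPM per kb of the 8 receptors in each of the 12 libraries; right, counts of Cxcr4 per 100 counts of Cxcr2 in each library (points, log axis) with the group mean (line). Cxcr4 fell from 28.3% to 1.95% of the sum with IL-3 and from 17.8% to 2.76% with TSLP.

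Genes whose levels across the 12 libraries were most like those of each receptor were sought among 7549 tested genes that averaged 10 CPM or more. The libraries share 4 groups, so these correlations of log2 CPM mainly follow group means and are given as a description. The genes closest to Cxcr4 were Wdhd1 (r = 0.987), Ccnb2 and Kifc1 (both 0.983). Ccnb2 encodes a mitotic cyclin, Kifc1 a spindle kinesin and Wdhd1 a factor of DNA replication. Ccnb2 was at 80.4 ± 0.865 and 59.1 ± 3.28 CPM in IL-3 and TSLP immature cells and at 1.35 ± 0.848 and 3.1 ± 1.11 CPM in the mature cells. Closest to Cxcr2 were Lilr4b (0.997), an inhibitory leukocyte receptor, Socs3 (0.997), a feedback inhibitor of cytokine signalling, and C3ar1 (0.994), the receptor of complement C3a. Socs3 was at 5.56 ± 0.198, 262 ± 16.9, 32.9 ± 5.81 and 157 ± 8.94 CPM in the order of the plots (IL-3 immature, then mature, and TSLP immature, then mature), the order that Cxcr2 had. For Ccr1 they were Hmox1 (0.982), Prcp (0.981) and Rchy1 (0.979). For Ccr2 they were Rgs2 (0.974), which accelerates GTP hydrolysis by G proteins, Ifngr2 (0.968), a subunit of the interferon-γ receptor, and Hist2h2aa1 (0.965). Rgs2 was at 189 ± 18 and 635 ± 8.81 CPM in IL-3 immature and mature cells and at 269 ± 40.6 and 323 ± 32.6 CPM in the TSLP groups, so that it too was high in IL-3 mature cells. For Ccr3 they were S1pr1 (0.978), the sphingosine-1-phosphate receptor of lymphocyte egress, Zfp36l1 (0.976) and Shisa5 (0.969), and for Cx3cr1, among 7550 genes, Npr2 (0.985), Gm42166 (0.976) and Aim2 (0.973). By rank correlation S1pr1 and Npr2 again came first for Ccr3 and Cx3cr1, and the first genes of the other 4 receptors differed.

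Among the receptors themselves, over the same 12 libraries, Cxcr4 ran against Cxcr2 (r = -0.90), Ccr3 (-0.91), Ccr1 (-0.82) and Ccr2 (-0.74). Cxcr2 and Ccr3 ran together (0.94), as did Cxcr2 and Ccr1 (0.92). Of the clustered genes of chromosome 9, Ccr1 and Ccr2 had an r of 0.62 and Ccr3 and Ccr2 one of 0.82. Ccr1l1, which lies between Ccr1 and Ccr3, had no count in any library of 3 groups and at most 0.781 CPM in TSLP immature cells. Ccrl2, an atypical chemokine receptor, was not called in either maturation comparison (0.03 ± 0.528 and -0.07 ± 0.481).

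Of 13 tested receptors for chemoattractants other than chemokines, 12 were higher and 0 lower in mature cells with IL-3, and 10 were higher and 0 lower with TSLP, against 24.1% and 12.9% of all tested genes called higher. Of the 12, Fpr1, a receptor of formylated peptides, passed the filter on low counts through mature libraries only (0 counts over the IL-3 immature and 47 over the IL-3 mature libraries), so that its higher level was in part a condition of its being tested. Among those at 10 CPM or more, C5ar1, the receptor of complement C5a, had the largest difference and was at 3 ± 0.397 and 78.9 ± 6.15 CPM in IL-3 immature and mature cells (4.69 ± 0.285, adjusted p = 3.14e-09) and at 19.3 ± 7.76 and 161 ± 10.8 CPM in the TSLP groups (3.06 ± 0.226, adjusted p = 1.29e-07). Unlike Cxcr2, Ccr2 and Ccr3, it was higher with TSLP than with IL-3 also in mature cells (1.03 ± 0.204, adjusted p = 0.00263). C3ar1 followed in both cultures (3.58 ± 0.186 and 1.66 ± 0.17). Gpr183, which binds oxysterols, was lower with TSLP in mature cells (-0.69 ± 0.189, adjusted p = 0.0156). The interaction was called for 6 of these 13 receptors, against 4.19% of all tested genes, with the smaller effect in TSLP cultures for each, C3ar1, C5ar1, Gpr183 and S1pr1 among them. Without TSLP mature 1 it was called for 7, each below 0, against 2.23% of all tested genes above and 4.33% below 0. S1pr1 itself was at 27.4 ± 4.37 and 103 ± 2.48 CPM in IL-3 immature and mature cells and at 34.9 ± 5.61 and 67.9 ± 3.31 CPM with TSLP. The monocyte and macrophage marker sum given above was also higher in every mature than in every immature library of each culture, and the order of its group means was that of C5ar1. Its part in these differences was not tested.

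Counted in either direction, the components that carry the signal from the receptors were called in a share near that of all genes. Those called were all higher in mature cells. Of 14 tested genes of G protein, phosphoinositide 3-kinase γ and Rac signalling, 6 were higher and 0 lower in mature cells with IL-3. With TSLP 3 were higher and 0 lower. This stood against 46.2% and 25.1% of all tested genes called in either direction, and 24.1% and 12.9% called higher. Without TSLP mature 1, 7 were higher with IL-3 and 4 with TSLP, against 25.6% and 12.4% of all tested genes called higher. Gng2, a G protein γ subunit, was at 86 ± 14.6 and 225 ± 14.6 CPM in IL-3 immature and mature cells (1.39 ± 0.164, adjusted p = 4.12e-06) and rose by 0.77 ± 0.161 with TSLP (adjusted p = 0.00229). Dock2, a Rac activator needed for lymphocyte migration, rose with IL-3 (0.93 ± 0.197, adjusted p = 0.00113). With TSLP it was not called (0.43, adjusted p = 0.12), but was without TSLP mature 1 (0.53, adjusted p = 0.0191). Prex1, another Rac activator, rose with IL-3 (0.84, adjusted p = 0.00468) and with TSLP (0.64 ± 0.212, adjusted p = 0.0374). Rac2 was higher with TSLP in mature cells (0.62 ± 0.192, adjusted p = 0.0288), and was not called when TSLP mature 1 was left out (0.40, adjusted p = 0.0986).

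Of 14 tested genes of receptor kinases, arrestins and RGS proteins, 9 were higher and 1 lower in IL-3 mature cells. In TSLP mature cells 2 were higher and 0 lower. This stood against 46.2% and 25.1% of all tested genes called in either direction, and 24.1% and 12.9% called higher. Without TSLP mature 1, which left 13 tested, 9 were higher and 0 lower with IL-3 and 5 were higher and 0 lower with TSLP. Of all tested genes, 25.6% were then higher and 25.9% lower with IL-3, and 12.4% higher and 19.0% lower with TSLP. The interaction was called for 2 of the 14, against 4.19%. Without TSLP mature 1 it was called for 3 of the 13, each below 0, against 2.23% of all tested genes above and 4.33% below 0. These genes act to switch receptors off. Grk5, a receptor kinase, was at 7.56 ± 1.65 and 35.9 ± 6.2 CPM in IL-3 immature and mature cells (2.21 ± 0.228, adjusted p = 9.4e-07). Rgs1, which dampens chemokine responses in lymphocytes, followed (1.99 ± 0.301, adjusted p = 5.42e-05). The gene called lower, Grk3, is named here after its value was seen. It had 26 counts over the IL-3 immature and 8 over the IL-3 mature libraries and reached the level the filter asks for in immature libraries only, so its direction was in part a condition of its being tested. With TSLP the genes called higher were Arrb1, which encodes β-arrestin-1 (1.01 ± 0.195, adjusted p = 0.00125), and Rgs14 (0.70 ± 0.162, adjusted p = 0.00471). Both were also higher with IL-3 (1.15, adjusted p = 0.000216, and 0.79, adjusted p = 0.00148). Grk5 and Rgs1 were not called with TSLP (0.58, adjusted p = 0.0501, and 0.71, adjusted p = 0.0846). Without TSLP mature 1 they were called (0.58, adjusted p = 0.042, and 0.90, adjusted p = 0.00746). In mature cells Rgs14 was higher (0.66 ± 0.163, adjusted p = 0.00944) and Rgs2 lower with TSLP (-0.97 ± 0.171, adjusted p = 0.00125). In immature cells 5 of the 14 were higher with TSLP and 0 lower, against 13.3% of all tested genes called, Rgs1 with the largest difference among those at 10 CPM or more (1.24 ± 0.296, adjusted p = 0.0126). When TSLP mature 1 was left out, 7 of 13 were higher and 0 lower, against 9.62% of all tested genes higher and 10.7% lower.

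Basophils also transcribed ligands of these receptors. Of 23 ligand genes listed, 19 had a count and 7 could be tested, of which 5 were higher and 0 lower in mature cells with IL-3 and likewise with TSLP, against 24.1% and 12.9% of all tested genes called higher. When TSLP mature 1 was left out, 6 were higher with IL-3 and 5 with TSLP, against 25.6% and 12.4%. With TSLP, Ccl2 passed the filter through mature libraries only. Ccl4, which encodes an inflammatory chemokine, was at 105 ± 18.2 and 947 ± 31.5 CPM in IL-3 immature and mature cells (3.17 ± 0.202, adjusted p = 4.6e-09) and at 377 ± 60.4 and 1129.6 ± 116 CPM with TSLP (1.58 ± 0.189, adjusted p = 1.41e-05). Ccl9, a ligand of CCR1, was at 790.4 ± 31.5 and 5368 ± 1060 CPM with IL-3 (2.76 ± 0.244, adjusted p = 1.7e-07) and at 2459 ± 610 and 5894 ± 1390 CPM with TSLP (1.26 ± 0.232, adjusted p = 0.000831). Ccr1 and one of its ligands were therefore both abundant in mature cells of both cultures. Cxcl2, a ligand of CXCR2, was at 34.2 ± 13.4 CPM in IL-3 mature and 8.84 ± 2.71 CPM in TSLP mature cells (-1.93 ± 0.311, adjusted p = 0.000781), the direction that Cxcr2 had. In immature cells Ccl4 was higher with TSLP (1.84 ± 0.193, adjusted p = 1.86e-05). Cxcl12, the ligand of CXCR4, reached at most 0.923 CPM in any library and was not tested. The interaction was called for 4 of the 7 tested ligands, against 4.19% of all tested genes, with the smaller effect in TSLP cultures for each. Without TSLP mature 1 it was called for 5, each below 0, against 2.23% of all tested genes above and 4.33% below 0.

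**Figure D4:**
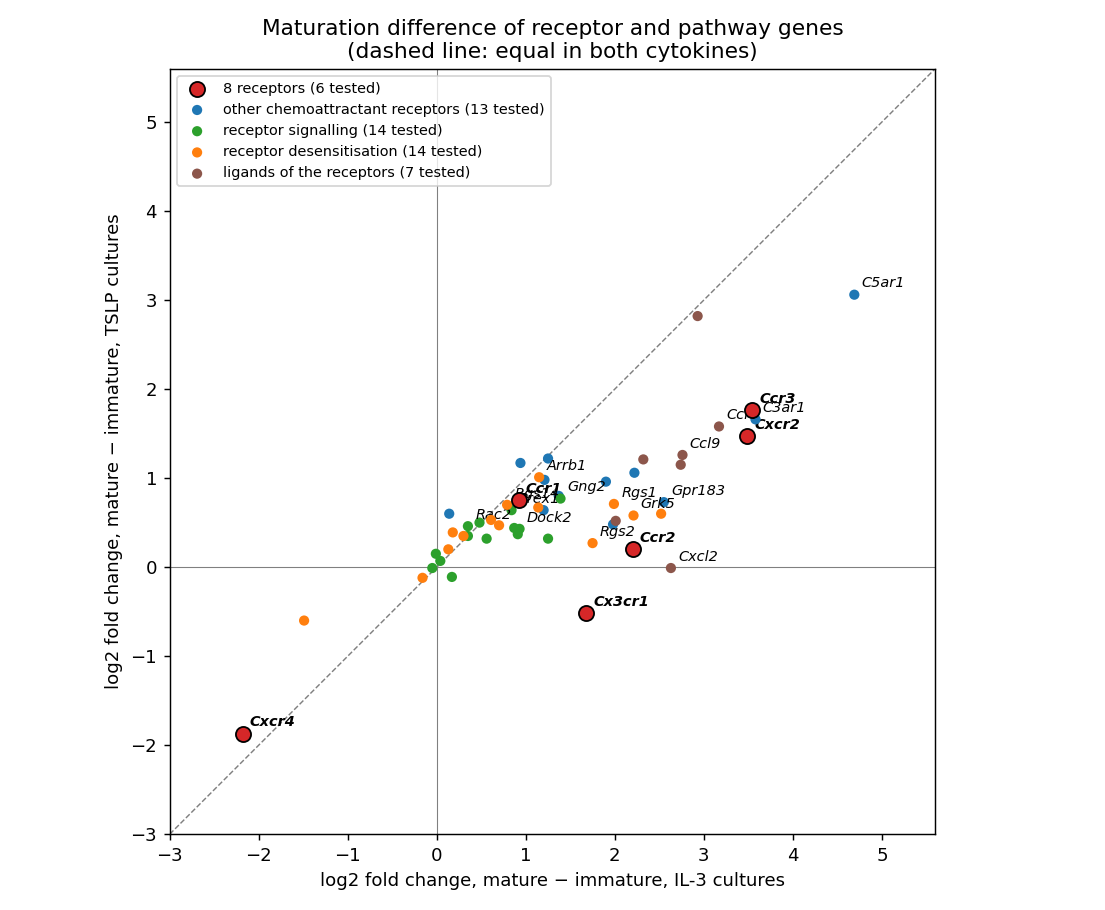
Log2 fold change of mature minus immature cells in IL-3 cultures (horizontal axis) and in TSLP cultures (vertical axis) of the 6 tested receptors and the tested genes of 4 pathway lists, with the 6 tested receptors and the pathway genes picked by the naming rule labelled and the dashed line marking equal differences. Cxcr4 stood alone at the lower left (-2.18 and -1.87) among the 6 receptors, and Ccr2 (2.20 and 0.20), Cxcr2 (3.49 and 1.47) and Ccr3 (3.54 and 1.76) lay below the line.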

How the data were processed

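RNA-seq libraries of immature and mature BMBAs from IL-3 and TSLP cultures were compared, 3 per group, grouped by the labels. The authors deposited raw counts per gene, listed by symbol, in a single table of 12 columns. Per the methods of the study, reads were trimmed with Cutadapt and mapped with Bowtie2 to GRCm38 reference RNA, whereas the submitters' processing notes name the builds GRCm39 and mm10. Strand use, molecular identifiers and the counting of reads that fit several genes were not stated there. Mapping to transcripts leaves the reads of similar genes open to either of them. An unnamed row equal to the sum of all others (50% of each column) was left out.

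Counts were tested with edgeR 4.0.16 (R 4.3.3) by the quasi-likelihood F test, after filterByExpr (minimum count 10, minimum total 15; 10861 genes) and TMM scaling, in a fit with a mean for each of 4 groups and no block. p-values were adjusted by Benjamini-Hochberg over all tested genes, and the procedure was tested on simulated data. The common coefficient of biological variation was 20.4%. The interaction is the maturation difference with TSLP minus that with IL-3. Replicates are separate cultures per the study's supplement. Limits for a count of 0 cover counting error only, whereas the standard errors also hold the estimated spread between libraries. DESeq2 1.42.0, other scalings and filters, thinning, a replicate block and the omission of each library were tried. List counts without TSLP mature 1 were added after seeing the data. Named pathway genes are the 2 called genes with the largest difference in each direction per list and maturation comparison (1 per cytokine comparison) at a mean of at least 10 CPM. The receptors and gene lists were chosen with earlier results of these data known. One further gene is not reported here.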

Additional observations from a re-analysis of the deposited data

Results flagged for a closer look

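The maturation difference of 3 receptors differed between the cytokines by the interaction test of edgeR, with 3 libraries in each of 4 groups. For Cxcr2 the difference was smaller with TSLP than with IL-3 (interaction -2.03 on the log2 scale, adjusted p = 0.00013). For Ccr2 it was smaller by a similar amount (interaction -2.00, adjusted p = 0.000142), with no rise detected in TSLP cultures. For Ccr3 the interaction was -1.78 (adjusted p = 0.0463), and it was lost without any of 10 of the 12 libraries, with the size factors of DESeq2 in edgeR and after thinning. All 3 kept their sign in each of the 21 alternatives.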

How the results depend on the processing

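Over 22 alternatives, every receptor called in IL-3 maturation and tested under the alternative kept its direction and call, as did Cxcr4, Cxcr2 and Ccr3 in TSLP maturation. Cxcr2 and Ccr2 kept the interaction call in all 21 alternatives run for it. Leaving out single libraries gave 1774 to 3456 genes called in TSLP maturation (2731 with all libraries), 1658 to 2968 between mature cells (2634), 588 to 2243 between immature cells (1443) and 240 to 723 for the interaction (455). The receptors called then numbered 2 to 4 between mature cells, 2 being called without IL-3 mature 1, and 1 to 3 between immature cells. A fit of only the groups compared called 1714 genes between mature cells. Between immature cells 1 receptor, Cxcr2, was called under DESeq2, without a filter, under a filter of 10 CPM in 3 libraries (which left Cx3cr1 out), in a fit of only the groups compared and with a replicate block. Over the omissions of single libraries, Cxcr4 ranged from -0.19 to 0.34 between mature cells and from -0.00 to 0.49 in the interaction. Signs turned for Cxcr4 between mature cells without IL-3 mature 3 (-0.14) or TSLP mature 1 (-0.19), for Cxcr4 in the interaction without TSLP mature 1 (-0.00) and for Cx3cr1 in TSLP maturation after thinning (0.00), none of which was called. The cause of these changes was not tested. Whether equal replicate numbers mark a shared culture was not stated, and the values did not settle it. Correlations of deviations from the group mean were -0.08 to 0.39 for equal numbers and -0.31 to 0.27 for unequal numbers. The replicate block gave 5251 genes in IL-3 maturation, 3067 in TSLP maturation and 556 for the interaction (5020, 2731 and 455 without it). Of the receptor calls it changed only that of Cx3cr1 in immature cells. Without division by length, 4 of 8 receptors changed place in TSLP immature and 3 of 8 in TSLP mature cells, and 0 in the IL-3 groups. Depth limits Ccr7, Cxcr3 and Cx3cr1, which had under 30 counts in every library.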
